A study of Mus musculus with 30 samples.

Results

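The genes of the fibroblast matrix were followed through inhibition of protein synthesis in a fibroblast line and a stem cell line. The set held 45 mouse genes, chosen by symbol. They encode collagen chains and the glycoproteins, proteoglycans and elastic fibre proteins around them. The others encode the proteins that fold, hydroxylate, trim and cross-link collagen, and the metalloproteinases with their inhibitors. Each symbol matched 1 of the 57186 gene rows of the count table. The study measured RNA by stranded mRNA sequencing in NIH/3T3, a mouse fibroblast line grown in DMEM with 10% fetal bovine serum, and CGR8, a mouse embryonic stem cell line grown in N2B27 with 2i and LIF. Both lines carried the genotype labelled ROSA26 SLT knock-in, controls included, and the labels do not say what SLT is. Cycloheximide, a blocker of translation elongation, was given at a dose of 0.1 µg/mL to both. Libraries were made after 0, 1, 2, 5 and 48 h, in 3 replicates (A, B and C) per line and time, 30 libraries in 10 groups. The question is how the transcriptome responds early to a block of protein synthesis. The 0 h libraries are the controls of their line. No untreated libraries were made at the later times. An effect of cycloheximide therefore cannot be told apart from one of time in culture, at 48 h above all. The labels do not say whether replicates were separate cultures, so p-values measure only the spread between these libraries, which may be technical.

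Collagens are secreted proteins of 3 chains. In the endoplasmic reticulum their prolines and lysines are hydroxylated and the chains fold with the aid of the chaperone HSP47. After secretion the ends of the procollagen are cleaved off, and lysyl oxidases cross-link the fibrils. Fibroblasts are the main source of collagen I, whose chains are encoded by Col1a1 and Col1a2. Matrix metalloproteinases degrade the matrix and tissue inhibitors (TIMPs) block them. Collagen mRNAs are a known target family of the microRNA miR-29.

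Levels are counts scaled by library size (CPM) and are shares of a library: a fall says that a gene took a smaller share, and fewer cells making an mRNA cannot be told apart from less mRNA per cell. Changes are log2 fold changes with their standard error from edgeR's quasi-likelihood test, and a gene was called, or said to rise or fall, at a Benjamini-Hochberg adjusted p under 0.05 over all genes tested in the line. Totals ranged from 18.2 to 30.5 M counts per library. In NIH/3T3, 42 of the 45 genes had enough counts to be tested, and in CGR8 31. Beyond the collagens, the fibroblast markers Pdgfra, Pdgfrb, Prrx1, Twist1, Thy1 and Fap summed to between 279 and 435.5 CPM in NIH/3T3, though Fap was at 0 and Thy1 at most 0.0929 CPM, and to at most 8.81 CPM in CGR8. The 6 pluripotency markers, Nanog and Pou5f1 among them, summed to at most 0.5525 CPM in NIH/3T3 and at least 4326 in CGR8. Epithelial, endothelial and macrophage markers each summed to at most 11.04 CPM in NIH/3T3, and the smooth muscle list (Acta2, Myh11, Des) to between 663 and 1379 CPM.

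A pair of NIH/3T3 libraries, 1 h C and 2 h A, stood apart from the others of their time. The slope of log2 CPM on exon length was -0.18 per doubling of length in 1 h replicate C, against 0.06 and 0.10 in the other 1 h replicates. By the chi-square of their counts per degree of freedom, 1 h C differed from the other 1 h libraries by 76.2 and 89.1 (4.41 between those), and 2 h A from the other 2 h libraries by 44.6 and 36.7 (7.24 between those). The slope lay between -0.05 and 0.03 at 0 h, between -0.18 and -0.11 at 2 h, between -0.13 and -0.08 at 5 h and between 0.17 and 0.18 at 48 h. The matrix genes are long: the median exon length was 6.47 kb over the 42 tested against 3.98 kb over all genes, and the median GC content 53.1% against 49.3%. Counts of called members over the whole set are therefore also given with smooth trends on exon length and GC content removed from each library, an alternative chosen after seeing the data. At 1 h no member was called in either line with these trends removed. The further lists of genes outside the set were not counted in this way. All-gene shares beside member counts are those of the main fit. They do not apply to counts with the trends removed or with libraries left out. What part length and GC content have in the changes was not tested beyond that.

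Sites of miR-29 are shown because its known targets include collagen mRNAs. The 3 mature forms from the 3′ arm share the seed, bases 2 to 8, shown in capitals (RefSeq, GRCm38.p6, 5′ to 3′).
mmu-miR-29a-3p: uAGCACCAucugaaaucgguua
mmu-miR-29b-3p: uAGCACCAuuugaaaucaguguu
mmu-miR-29c-3p: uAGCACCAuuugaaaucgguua
The complement of the seed, TGGTGCT, was searched on the sense strand of the 3′ untranslated regions. It was found in 18 of the 44 members with an annotated 3′ untranslated region (40.9%), against 11.9% of 20768 genes, and the members' regions were somewhat longer, with a median of 968.5 bases against 803. Of the collagens 10 of 13 held it and of the other members 8 of 31, at 30 places in all. The following sites of 26 bases are from GENCODE gene models on GRCm38, with the match in capitals. They are the first sites in 7 collagens and in Fbn1, whose levels or changes are given below. Col11a1, Col4a2 and Fbn1 hold 2 matches each.
Col1a1, chr11:94952523-94952548, plus strand: gtgggaaggaatttcTGGTGCTatag
Col3a1, chr1:45348967-45348992, plus strand: ttcaaaatgtctcaaTGGTGCTataa
Col5a2, chr1:45374962-45374987, minus strand: cttttcttttaatgaTGGTGCTaaaa
Col11a1, chr3:114219068-114219093, plus strand: ctatttggatttcgtTGGTGCTgtag
Col4a1, chr8:11199758-11199783, minus strand: gccaccgtcacaacaTGGTGCTactc
Col4a2, chr8:11448344-11448369, plus strand: gtgggaaggccacgtTGGTGCTtatc
Col6a2, chr10:76596167-76596192, minus strand: tctccatcccatctgTGGTGCTaata
Fbn1, chr2:125301170-125301195, minus strand: tttctgttgtctgttTGGTGCTagta
Elastin (Eln) holds 3 matches and Col5a1 4, while Col1a2, Col6a1 and Col12a1 hold none in the annotated region. A match is a description of the letters, and the microRNA itself was not measured.

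In NIH/3T3 the matrix set made up 2.26% of all counts at 0 h (SD 0.0626, n = 3), 1.68% at 2 h (SD 0.0532), 1.90% at 5 h (SD 0.0884) and 3.02% at 48 h (SD 0.0328). The 14 collagen chains alone made up 1.15% at 0 h (SD 0.0449), 0.71% at 2 h (SD 0.0811), 0.73% at 5 h (SD 0.0649) and 1.65% at 48 h (SD 0.0388). At 2, 5 and 48 h the libraries did not overlap those at 0 h. The two-sided exact permutation p was 0.1 for each, the smallest that 3 against 3 libraries can give. The plot of shares shows the dip and the overshoot.

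**Figure D1:**
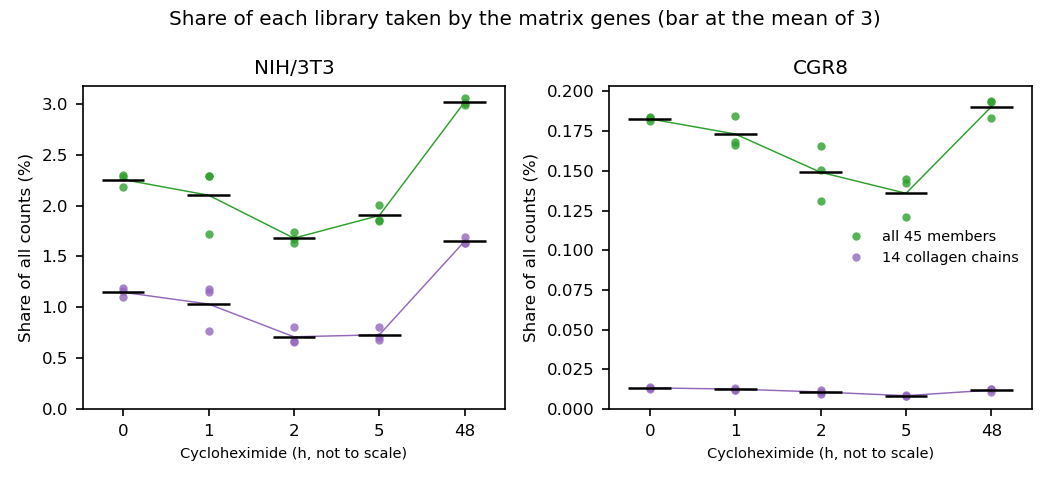
Share of all counts (%) taken by the 45 matrix genes (green) and the 14 collagen chains (purple) in each library of NIH/3T3 (left) and CGR8 (right), by hours of cycloheximide; points are libraries and bars the mean of 3, joined by lines. In NIH/3T3 the set goes from 2.26% at 0 h to 1.68% at 2 h and 3.02% at 48 h, and in CGR8 it is at most 0.194%.

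Per kilobase of exon, the highest mean levels at 0 h in NIH/3T3 were those of Sparc, a collagen-binding glycoprotein (659.5 CPM per kb, SD 20, n = 3), Serpinh1, which encodes HSP47 (620 CPM per kb, SD 37.0), and Col1a1 (468 CPM per kb, SD 45.9). The first 2 did not differ beyond their spread. At the other end, Lum had no count in any NIH/3T3 library, which allows up to 0.163 CPM in the shallowest, Mfap2 had 1 count in 1 library, and Loxl2 had at most 11 counts; these 3 could not be tested. Eln had at most 15 counts and Dcn at most 16, so that elastin and decorin are close to the limit of detection in this line.

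At 1 h no member was called in NIH/3T3 by edgeR, where 0.732% of all genes were called (0.653% higher and 0.0789% lower). An unadjusted edgeR p under 0.05 was found in 8 members and in 1575 of the 13941 genes tested. DESeq2 called 1 member and voom with sample weights called 8. The gene nearest to a call was Thbs1, which encodes thrombospondin-1, an adhesive glycoprotein of early wound responses: its levels were 258, 306 and 147 CPM in replicates A, B and C at 1 h against 158, 149 and 141 CPM at 0 h. Replicate C, the library low in long genes, lay within the controls, and without it the log2 change of Thbs1 was 0.90 (edgeR adjusted p = 3.01e-05) in place of 0.67 (adjusted p = 0.107). With 1 h C and 2 h A both left out, 5 members were called at 1 h, Thbs1, Col12a1, Lox and Col6a3 higher and Pcolce lower. Over all genes DESeq2, voom and this omission also called more than edgeR did, with the counts in the closing section. The members called here are therefore not read as a response of the matrix genes in particular.

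At 2 h 23 of the 42 members had fallen in NIH/3T3 and 2 had risen, against 18.9% lower and 16.1% higher of all genes tested (35% called either way). The median change of the set was -0.33 and that of all genes -0.01. At 5 h again 23 had fallen and 6 had risen, against 27.1% and 24% of all genes (51% either way), with a median of -0.39 against -0.01. The comparisons with 0 h share their control libraries, so their values are given side by side and not as independent evidence. With the length and GC trends removed, 17 were lower and 3 higher at 2 h, and 15 lower and 8 higher at 5 h, of which 14 and 6 were among the calls above, and the median at 5 h was -0.12. Without 1 h C and 2 h A the counts at 5 h were 26 lower and 7 higher. Leaving out single libraries gave 17 (without 2 h C) to 29 (without 2 h A) calls at 2 h and 27 to 29 at 5 h. At 2 h the calls of Bgn, Col6a2, Col6a3, Fbn1, P4ha1, P4ha2, Pcolce, Plod1 and Timp1 were each lost without at least 1 of 0 h A, B or C or 2 h B or C, with edgeR adjusted p of at most 0.191.

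All 6 fibrillar collagen chains fell by 2 h and were lower at 5 h, against 18.9% and 27.1% of all genes lower. These chains build the rope-like fibrils of skin, bone and tendon. Col1a1 stood at 3222, 2725 and 3269.6 CPM at 0 h, at 2274, 1606 and 1662 CPM at 2 h and at 1595, 1743 and 2002 CPM at 5 h, a log2 change of -0.79 ± 0.16 (SE) at 5 h with edgeR (adjusted p = 0.000528). Col1a2, its partner chain, went from 2707, 2696 and 2869 CPM to 1800.4, 1808 and 2024 CPM at 5 h, a change of -0.55 ± 0.13. Col3a1, the chain of the collagen of pliable tissues, went from 397, 468 and 439.6 CPM to 218, 235 and 254 CPM, a change of -0.88 ± 0.13. In all 3 genes every library at 5 h lay below every library at 0 h. Col11a1, a minor fibril chain, fell by 0.86 on the log2 scale at 5 h, Col5a1 by 0.47 and Col5a2 by 0.50. With the trends removed 4 of the 6 remained lower at 5 h, Col1a1 with -0.25 and Col3a1 with -0.62, whereas Col1a2 (-0.15) and Col5a1 (0.05) were not called.

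The network and filament collagens shared the early fall. Col4a1 and Col4a2, the chains of basement membrane collagen IV, went from 715, 732 and 769 CPM and from 549.7, 525 and 585 CPM at 0 h to 364, 364 and 424 CPM and to 288, 304 and 340.5 CPM at 5 h. The changes were -0.94 ± 0.13 and -0.83 ± 0.13, and no library overlapped; with the trends removed they were -0.44 and -0.24 and still called. Col6a1, Col6a2 and Col6a3, the chains of beaded-filament collagen VI, fell by 0.74, 0.71 and 0.48 on the log2 scale at 5 h. The call of Col6a3 was lost without 0 h A (adjusted p = 0.0652), 5 h A (0.0703) or 5 h B (0.0664) in edgeR. Col18a1, source of the fragment endostatin, fell by 0.71, to no more than 7.80 CPM, and was not called with the trends removed (-0.11). Col8a1 (5.68 to 8.30 CPM over all 15 libraries) and Col12a1 were not called at 5 h. With the trends removed Col8a1 was called higher at 5 h (0.30). Col6a1 (-0.33) and Col6a2 (-0.32) were then still lower, and Col6a3 (-0.14) was not called.

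**Figure D2:**
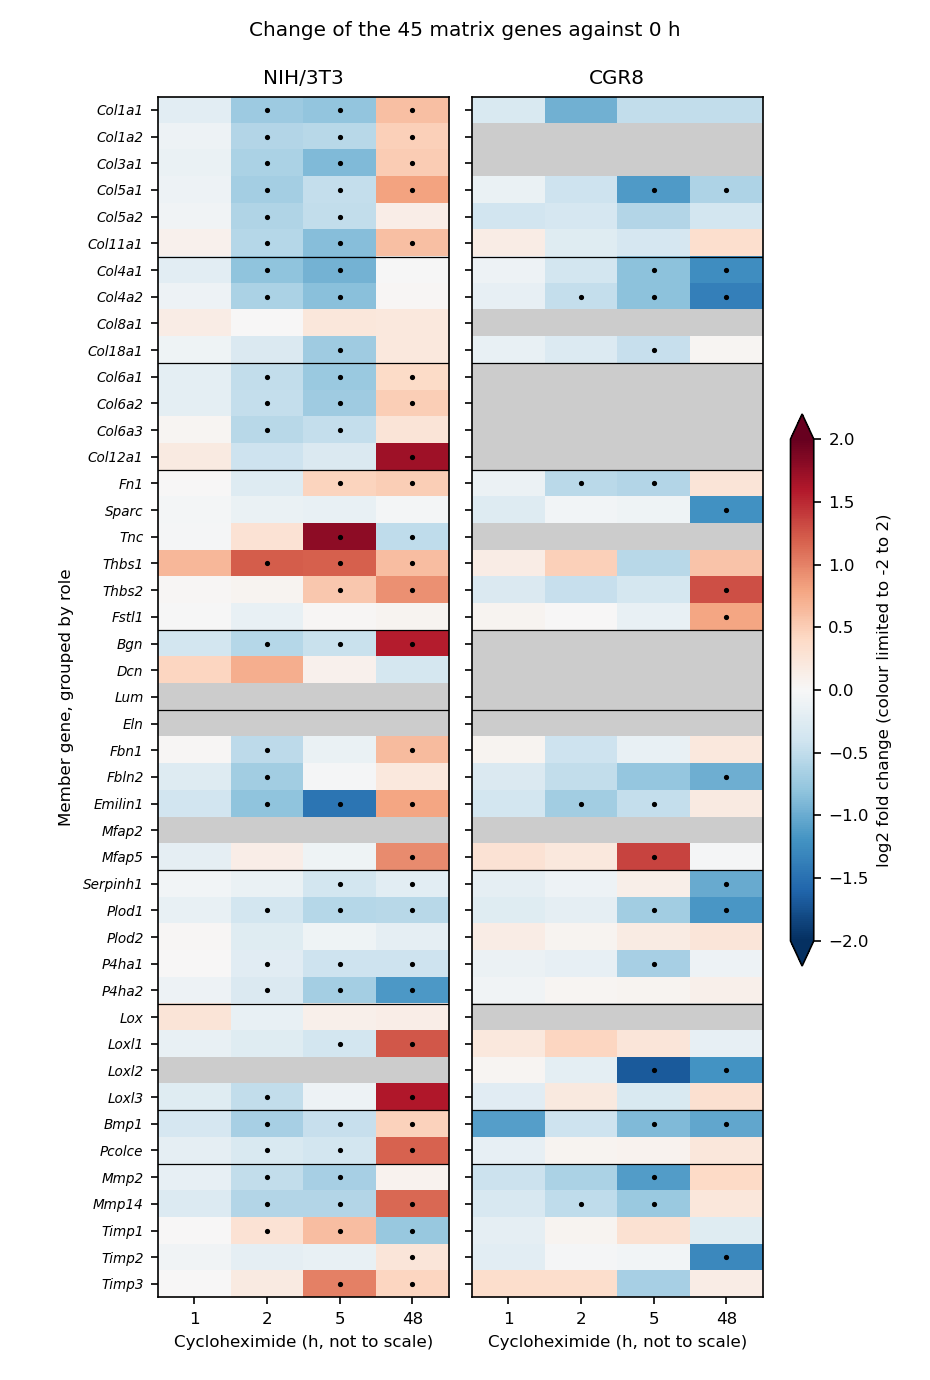
Log2 fold change against 0 h of the 45 matrix genes (rows, grouped by role with lines between roles) at 1, 2, 5 and 48 h of cycloheximide (columns) in NIH/3T3 (left) and CGR8 (right); dots mark calls at an adjusted p under 0.05, and grey marks genes with too few counts, Eln included. In NIH/3T3 the 6 fibrillar rows are blue at 2 and 5 h and red at 48 h, palest in Col5a2.

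Col4a1 and Col4a2 lie head to head on chromosome 8 of the GRCm38 assembly, Col4a1 on the minus and Col4a2 on the plus strand, and their first bases in RefSeq overlap by 22. The window of Col4a2 from 250 bases before to 50 after its start is shown because it overlaps the window of Col4a1. The levels of both chains fell at 5 h in NIH/3T3 and CGR8. With the length and GC trends removed neither fall was called in CGR8 (Col4a1 -0.16, Col4a2 -0.04). What part the promoter has in the falls was not tested. In the sequence, capitals mark a CCAAT box (GRCm38.p6, chr8:11312555-11312854, plus strand).
Col4a2: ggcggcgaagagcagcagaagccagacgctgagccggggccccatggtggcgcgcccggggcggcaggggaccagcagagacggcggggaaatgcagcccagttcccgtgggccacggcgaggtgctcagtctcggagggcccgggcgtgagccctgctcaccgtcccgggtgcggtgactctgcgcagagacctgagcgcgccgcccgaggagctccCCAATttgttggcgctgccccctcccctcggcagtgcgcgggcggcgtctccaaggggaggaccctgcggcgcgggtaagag
It holds no TATAAA and 3 GC boxes (GGGCGG on either strand). Over the 29 members with a RefSeq promoter entry, 72.4% held a GC box against 35.7% of 32851 promoters of the same length, 34.5% a CCAAT against 37.4%, 17.2% a TATAAA against 13.6% and 3.45% an AP-1 motif TGANTCA against 7.81%, all on both strands. The RefSeq windows of the 2 genes share 78 bases. The ratio of Col4a1 to Col4a2 per kb of exon was 1.19 at 0 h (SD 0.0442, n = 3), 1.10 at 5 h (SD 0.0292) and 1.16 at 48 h (SD 0.016).

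Against the collagens stood the adhesive and matricellular glycoproteins, of which 4 of 6 rose at 5 h and none fell. Of all genes 24% rose and 27.1% fell. Tnc, which encodes tenascin-C, a matrix protein of wounds and developing tissue, went from 122, 116 and 118 CPM at 0 h through 120.3, 166 and 147 CPM at 2 h to 373, 409 and 453 CPM at 5 h. That is a log2 change of 1.79 ± 0.15, the largest rise among the members called at 5 h (edgeR adjusted p = 2.36e-07). Thbs1 was up earlier: 351, 366 and 320.5 CPM at 2 h and 331, 319.7 and 378 CPM at 5 h, a change of 1.21 and then 1.199 ± 0.178. Thbs2, its relative, rose at 5 h by 0.54 ± 0.14.

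Fn1, which encodes fibronectin, the main adhesive glycoprotein of plasma and matrix, went from 1388, 1286 and 1286 CPM to 1672, 1743 and 1976 CPM at 5 h, a change of 0.44 ± 0.16. Its call was lost without 0 h B, 0 h C, 5 h B or 5 h C in edgeR (adjusted p = 0.0526 to 0.107) and was 0.74 with the trends removed. Sparc did not pass the test at any time in NIH/3T3 and lay between 2203 and 2597 CPM in all 15 libraries, and Fstl1, a secreted glycoprotein related to Sparc, between 244 and 360.1 CPM.

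Of the 5 elastic fibre genes tested only Emilin1, which encodes a glycoprotein at the surface of elastic fibres, had fallen at 5 h. Of all genes 27.1% had. It went from 12.4, 16.5 and 14.5 CPM to 5.15, 5.40 and 5.30 CPM, a change of -1.46 ± 0.16, the largest fall among the members called at 5 h. Fbn1, which encodes the microfibril protein fibrillin-1, and Fbln2 were lower at 2 h, by 0.52 and 0.69 on the log2 scale. Neither was called at 5 h (-0.14 and -0.02). With the length and GC trends removed the 2 h call of Fbn1 was lost (-0.23) and that of Fbln2 was kept (-0.33). Fbln2 was then called higher at 5 h (0.45). The small proteoglycan Bgn fell at 5 h by 0.45, a call lost without 0 h C (adjusted p = 0.138) or 5 h B (0.107) in edgeR, and Dcn was not called.

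Genes whose proteins fold or hydroxylate collagen in the endoplasmic reticulum fell at 5 h in 4 of 5 cases and none rose. Of all genes 27.1% fell and 24% rose. P4ha1 and P4ha2, catalytic subunits of prolyl 4-hydroxylase, changed by -0.41 ± 0.07 and -0.68 ± 0.10, and Plod1, a lysyl hydroxylase, by -0.57 ± 0.09. Serpinh1 went from 1479, 1448 and 1618 CPM to 1196, 1145 and 1194 CPM, a change of -0.36 ± 0.08 that was not called with the trends removed (-0.10). Plod2, the lysyl hydroxylase of the collagen ends, was not called (-0.09), but was called lower with the trends removed (-0.25). The procollagen trimming genes Bmp1, the C-proteinase, and Pcolce, its enhancer, fell by 0.46 and 0.37, and neither was called with the trends removed (0.01 and -0.09).

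The proteases and their inhibitors went in opposite directions at 5 h. Mmp2 and Mmp14, a gelatinase and the membrane-bound protease that activates it, changed by -0.66 ± 0.11 and -0.58 ± 0.10. Timp3, the inhibitor that stays bound to the matrix, went from 699.6, 697 and 634 CPM to 1365, 1328 and 1400.0 CPM, a change of 1.01 ± 0.12 (edgeR adjusted p = 5.96e-06), and Timp1 from 143, 123 and 149.999 CPM to 217, 220.0 and 201 CPM, a change of 0.62 ± 0.11. Timp2 was not called (-0.15). All 4 calls held with the trends removed, with values of -0.38, -0.26, 1.09 and 0.42. Timp3 shares 1733 exon bases with Syn3 on the other strand, so reads of the 2 cannot be told apart unless counting used strand, which the sources used here do not give.

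**Figure D3:**
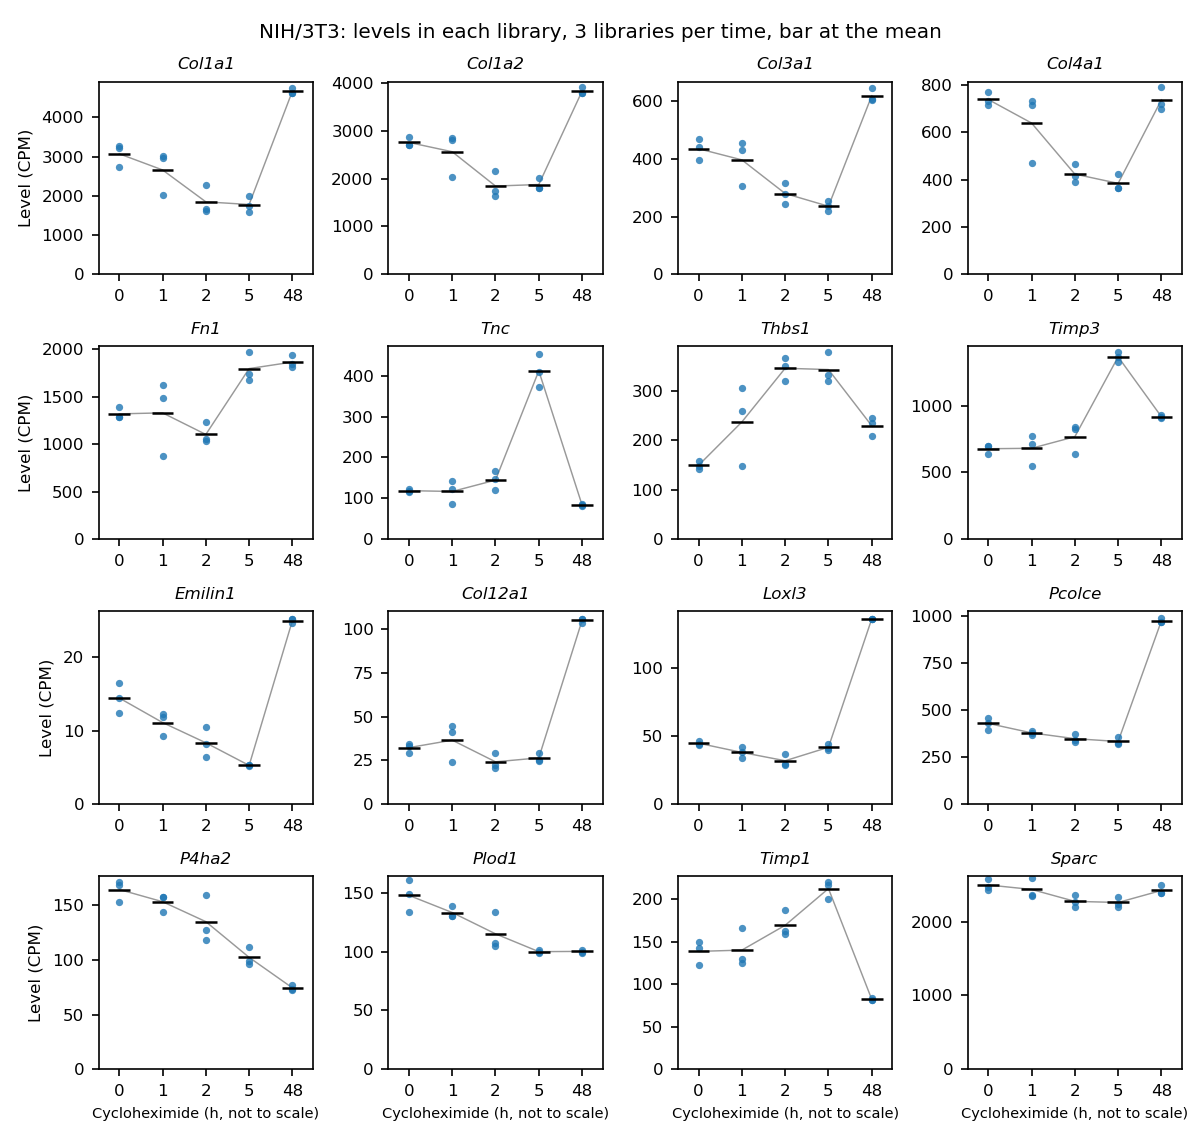
Levels (CPM, linear axes from 0) of 16 matrix genes in each NIH/3T3 library by hours of cycloheximide; points are libraries and bars the mean of 3. The collagen panels dip at 2 and 5 h, Tnc, Timp1 and Timp3 are highest at 5 h, Col12a1, Loxl3 and Pcolce stand out at 48 h, and 1 library at 1 h lies low in several panels.

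At 48 h the picture had turned: 23 of 42 members were higher than at 0 h and 6 lower, against 26.7% higher and 25.6% lower of all genes (52.3% either way). The median change was 0.41 against -0.01 for all genes. From 5 h to 48 h 26 rose and 5 fell (34.1% and 31.4% of all genes, 65.6% either way), with a median of 0.75 against 0.02. With the trends removed 21 were higher and 5 lower at 48 h against 0 h, with a median of 0.24, and 24 rose and 8 fell from 5 h, also with a median of 0.24. Without 1 h C and 2 h A, 25 were higher and 7 lower at 48 h.

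Of the fibrillar chains 5 of 6 were above 0 h at 48 h and none below, against 26.7% and 25.6% of all genes. Col1a1 reached 4626, 4629 and 4757 CPM and Col1a2 3790.0, 3785 and 3917 CPM, changes of 0.60 ± 0.16 and 0.47 ± 0.13 (edgeR adjusted p = 0.00379 and 0.0046); Col1a2 was not called with the trends removed (0.11). Col3a1 reached 606, 603 and 646 CPM, and Col5a1 rose by 0.80 ± 0.13. Col5a2, which pairs with Col5a1 in collagen V, did not pass the test (0.13), and the ratio of Col5a1 to Col5a2 per kb was 1.25 at 48 h (SD 0.0192, n = 3) against 0.786 at 0 h (SD 0.0678), without overlap and with an exact permutation p of 0.1. The ratio of Col1a1 to Col1a2 was 2.11 at 0 h (SD 0.175), 1.79 at 5 h (SD 0.102) and 2.31 at 48 h (SD 0.00833), again without overlap with 0 h and with an exact permutation p = 0.1 for both. The level of such a ratio depends on the summed exon length of the gene models, 6.56 kb for Col1a1 and 12.4 kb for Col1a2. Only its change is read, and that can also carry the length and GC trends. At 5 h Col1a1 and Col1a2 changed by -0.79 and -0.55, and with the trends removed by -0.25 and -0.15. At 48 h the values were 0.60 and 0.47, and 0.52 and 0.11 with the trends removed. The ratios themselves were not computed with the trends removed.

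Collagen IV was back at its starting level rather than above it: Col4a1 stood at 719, 699 and 793 CPM and Col4a2 at 545, 543 and 601 CPM at 48 h, changes of -0.0031 and 0.02 that did not pass the test. None of the 4 basement membrane and network chains was called at 48 h, against 52.3% of all genes called either way. Col12a1, a collagen that decorates fibrils, went the other way, from 34.7, 33.1 and 29.2 CPM at 0 h through 24.9, 25.3 and 29.3 CPM at 5 h to 104, 106 and 106 CPM at 48 h, a change of 1.70 ± 0.17 (edgeR adjusted p = 9.29e-07), 1.28 with the trends removed. Col6a1 and Col6a2 rose by 0.38 and 0.49, and Col6a3 was not called.

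Most of the extracellular processing genes were higher at 48 h. Loxl3, a lysyl oxidase relative, went from 43.6, 44.4 and 46.1 CPM to 136 CPM in each library, a change of 1.60 ± 0.10 (edgeR adjusted p = 6.06e-09), and Loxl1, the oxidase of elastic fibres, from 63.9, 59.5 and 66.3 CPM to 151, 144 and 152 CPM, a change of 1.24 ± 0.10. Loxl3 shares 535 exon bases with Htra2 on the other strand, with the same limit as for Timp3. Lox itself, the first described lysyl oxidase, was at 609.8, 657 and 546 CPM at 0 h, 625, 666 and 659.7 CPM at 5 h and 618, 706 and 673 CPM at 48 h, overlapping and not called. Pcolce rose by 1.18 ± 0.08, to 990.1, 965 and 966 CPM, and Bmp1 by 0.47 ± 0.13, a call not kept with the trends removed (0.27). Mmp14 rose by 1.14 ± 0.10, to 388, 385 and 392 CPM.

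The folding and hydroxylation genes of the endoplasmic reticulum did not follow. None of the 5 rose at 48 h and 4 were lower than at 0 h, against 26.7% and 25.6% of all genes. P4ha2 stood at 172, 153 and 169 CPM at 0 h, 112, 96.0 and 98.9 CPM at 5 h and 77.1, 72.7 and 73.4 CPM at 48 h, a change of -1.15 ± 0.11 (edgeR adjusted p = 2.87e-07). Plod1 was at 149, 134 and 161 CPM at 0 h and at 99.5, 99.8 and 102 CPM at 48 h, a change of -0.56 ± 0.09, and P4ha1 changed by -0.41 ± 0.07. Serpinh1 was lower by 0.20 at 1277, 1352 and 1318 CPM, and this small call was lost without any single library but 0 h B (edgeR adjusted p = 0.0563 to 0.187) and with the trends removed. In the plot by role, all 6 fibrillar chains lie on the same side of 0 as these 5 genes at 5 h. At 48 h the chains lie on the other side.

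**Figure D4:**
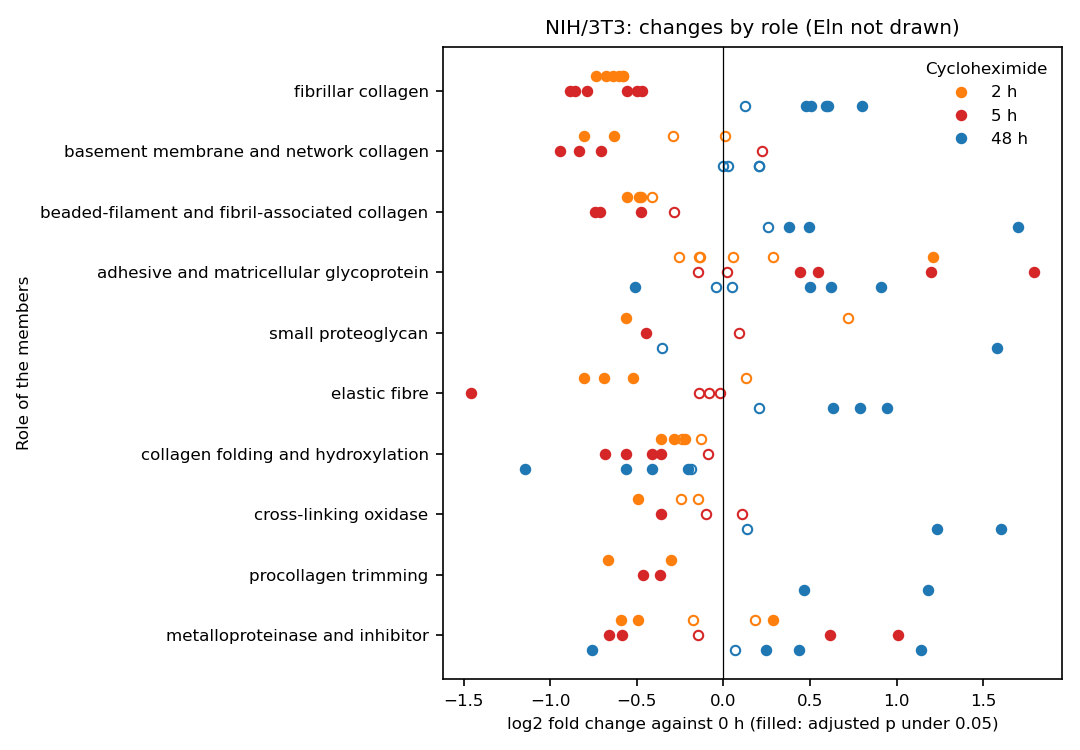
Log2 fold change against 0 h of each tested matrix gene in NIH/3T3 (horizontal axis) by role (vertical axis) at 2 h (orange), 5 h (red) and 48 h (blue) of cycloheximide; filled points are called at an adjusted p under 0.05 and Eln is not drawn. The folding and hydroxylation genes keep to the left at all 3 times, and the called fibrillar, cross-linking and trimming genes lie on the left at 2 and 5 h and on the right at 48 h.

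Matricellular genes and inhibitors reversed in part. Tnc dropped from its 5 h level to 81.2, 85.01 and 84.5 CPM, below all libraries at 0 h (a change of -0.51 ± 0.15), and Timp1 to 80.9, 81.0 and 84.1 CPM (-0.76 ± 0.11). Timp3 and Thbs1 came down from 5 h but stayed above 0 h, with changes of 0.44 and 0.62, and Thbs2 was higher by 0.91 ± 0.14, at 273, 268 and 272 CPM. Fn1 was higher by 0.50 ± 0.16 and not called with the trends removed (0.19).

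Of the 2 small proteoglycans tested 1 rose at 48 h, and of the 5 elastic fibre genes 4, against 26.7% of all genes. The proteoglycans are too few to be set against that share. Bgn went from 5.23, 4.99 and 6.41 CPM to 17.1, 16.9 and 15.8 CPM, a change of 1.58 ± 0.14. Emilin1 reached 25.3, 25.2 and 24.6 CPM, a change of 0.79 ± 0.15 against 0 h, and Fbn1 and Mfap5 rose by 0.63 and 0.94. Eln was called on 15, 12 and 11 counts at 48 h against 2, 1 and 2 counts at 0 h, too few for a fold to be read. Fbn1 shares 2442 exon bases with the predicted gene Gm9913 on the other strand.

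Genes of the same pathways outside the set were read from 4 further lists, against all-gene shares of 27.1% lower and 24% higher at 5 h and 25.6% lower and 26.7% higher at 48 h. Of 32 other matrix proteins tested, 17 fell (53.1%) and 3 rose (9.38%) at 5 h and 18 rose (56.2%) and 4 fell (12.5%) at 48 h. Among them Spp1, which encodes osteopontin, had the largest rise at 5 h (1.16 ± 0.18) and Ltbp4, a binding protein of latent TGF-beta, the largest fall (-0.93 ± 0.17). At 48 h Ogn, a small proteoglycan, had the largest rise (2.43 ± 0.14) and Ecm1 the largest fall (-1.23 ± 0.10). Of 19 collagen folding and export genes 9 fell (47.4%) and 1 rose (5.26%) at 5 h, with Mia3, an export receptor for collagen, at -0.92 ± 0.11 and Ppib at 0.34 ± 0.11, and 7 fell (36.8%) and 5 rose (26.3%) at 48 h, with Adamts2, the procollagen N-proteinase, at 0.94 ± 0.12 and P4ha3 at -0.78 ± 0.10.

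Of 21 other proteases and inhibitors 8 fell (38.1%) and 5 rose (23.8%) at 5 h and 6 fell (28.6%) and 7 rose (33.3%) at 48 h, the share of rises at 5 h and that of falls at 48 h being near those of all genes. Adamts7 fell at 5 h (-0.99 ± 0.15), and Reck, a membrane inhibitor of metalloproteinases, rose at 48 h (1.02 ± 0.16). Of 22 matrix receptors and TGF-beta genes 7 fell (31.8%) and 3 rose (13.6%) at 5 h and 9 fell (40.9%) and 6 rose (27.3%) at 48 h. The syndecan Sdc4 (0.83 ± 0.08) and the integrin chain Itgb5 (-0.72 ± 0.11) were the extremes at 5 h, and Itga1, a chain of a collagen receptor (1.82 ± 0.12), and Itga3, of a laminin receptor (-0.67 ± 0.13), those at 48 h.

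Members with and without the miR-29 match are set side by side as a description. At 5 h in NIH/3T3 the 16 tested members with a match had a median change of -0.61 and the 25 without one -0.15. The match goes with being a collagen. Within the collagens the 10 with a match had a median of -0.75 and the 3 without one -0.55. Outside them the values were -0.35 for 6 and -0.12 for 22 genes. The 6 include Eln (-1.09), on too few counts for a fold to be read. The others were Mmp2 (-0.66), Plod1 (-0.57), Fbn1 (-0.14), Mfap5 (-0.08) and Lox (0.11), so the value of -0.35 depends on Eln. At 48 h the medians were 0.37 with and 0.44 without a match.

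Over the 5 time means of NIH/3T3, the genes whose log2 CPM followed Col1a1 most closely among 8777 genes were Samhd1, Mcm3ap, Pcnx3, Hnrnpul1 and Sfxn3, with Pearson's r between 0.9987 and 0.9996; Col1a2 came at rank 21 (r = 0.998). With 5 points that share libraries and scaling, this is a description.

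CGR8 stem cells expressed few of these genes. Col1a1 did not pass 0.726 CPM, and Col1a2, Col3a1, collagen VI, Col12a1, Tnc, Lox, Bgn, Dcn, Lum, Eln and Mfap2 were at most at 0.432 CPM in any library. The members together made up 0.183% of counts at 0 h (SD 0.00146, n = 3), 0.136% at 5 h (SD 0.0131) and 0.19% at 48 h (SD 0.006). The genes with high levels were Fn1, Sparc, Pcolce, Fstl1, Col18a1 and Timp1.

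Among the CGR8 controls 0 h B stood apart, with a chi-square per degree of freedom of 36.2 and 36.3 against the other 0 h libraries and 3.55 between those. Pairs of 2 h libraries gave 37.5 to 61.7 and pairs of 5 h libraries 31.7 to 73.7. Without 0 h B, 4 members were called at 2 h, 12 at 5 h and 10 at 48 h, and 9 and 18 differed between the lines at 5 and 48 h.

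At 1 h no member was called in CGR8 by edgeR or DESeq2, against 0.27% of all genes with edgeR. An unadjusted edgeR p under 0.05 was found in 2 members and in 1289 of the 15933 genes tested. Voom with sample weights called 3 members, and over all genes it also called more than edgeR. At 2 h 4 of 31 were lower (11% of all genes lower, 8.97% higher, 19.9% either way): Col4a2, Fn1, Emilin1 and Mmp14. None of these 4 calls was left without 2 h C (edgeR adjusted p = 0.0596 to 0.2) or with the length and GC trends removed. Without 0 h A those of Col4a2 and Fn1 were lost, without 0 h B that of Col4a2, and without 0 h C or 2 h A that of Fn1. At 5 h 12 were lower and 1 higher, against 27.2% and 24.9% of all genes (52.1% either way), with a median of -0.47 against -0.01. The slope on exon length was -0.42, -0.27 and -0.15 in the 5 h libraries against -0.09 to 0.05 at 0 h. With the trends removed 6 were lower and 5 higher, of which 5 and 1 were among the calls above, so 7 of the 12 lower calls were not kept.

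Among members with at least 10 CPM in either group and no overlap, the 2 largest falls at 5 h were those of Col5a1, from 11.2, 12.3 and 11.05 CPM to 4.30, 5.98 and 5.40 CPM (-1.14 ± 0.17, edgeR adjusted p = 5.46e-05), and Col4a1, from 12.2, 13.7 and 13.1 CPM to 6.35, 9.42 and 6.38 CPM (-0.82 ± 0.19). Col4a2 changed by -0.83 ± 0.14 from at most 4.44 CPM. With the trends removed Col5a1 was called (-0.41), and Col4a1 (-0.16) and Col4a2 (-0.04) were not. Loxl2 (-1.68 ± 0.34), Mmp2 (-1.11 ± 0.27), Mmp14 (-0.74 ± 0.12) and P4ha1 (-0.66 ± 0.13) were lower with and without the trends. Fn1 went from 911, 854 and 945 CPM to 421, 681 and 702 CPM (-0.59 ± 0.18), lost without 5 h A (adjusted p = 0.0548), the library with the steepest slope on length, and not called with the trends removed (-0.02). The calls of Bmp1 and Emilin1 were lost without several single libraries (0 h A, 0 h B, 5 h B and 5 h C for both, 5 h A for Emilin1; adjusted p of at most 0.203 in edgeR). Col18a1 was lower by 0.46, and with the trends removed it was higher by 0.35. The one rise was that of the microfibril gene Mfap5, from 0.834, 0.686 and 0.795 CPM to 2.04, 2.06 and 1.87 CPM (1.35 ± 0.23).

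At 48 h 10 of 31 members were lower and 2 higher in CGR8, against 15.6% and 12.2% of all genes (27.8% either way), with a median of -0.02 against 0.00. With the trends removed the same 10 were lower, and 4 higher. Sparc went from 223, 312 and 231 CPM to 112, 109 and 109 CPM (-1.22 ± 0.14, edgeR adjusted p = 1.56e-05), Col4a1 to 4.22, 5.63 and 6.58 CPM (-1.25 ± 0.19) and Col4a2 to 1.69, 1.75 and 1.60 CPM (-1.36 ± 0.14). Serpinh1 went from 30.8, 34.7 and 30.4 CPM to 15.6, 16.9 and 15.4 CPM (-1.001 ± 0.118) and Plod1 from 23.0, 27.7 and 21.1 CPM to 11.2, 10.1 and 10.7 CPM (-1.16 ± 0.16). No library at 48 h overlapped 0 h in these 5 genes.

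Fstl1 rose, from 105, 103 and 106 CPM to 172, 188 and 183 CPM (0.79 ± 0.09), as did Thbs2 at low level (1.29 ± 0.28). Fn1 stood at 1083, 1023 and 1149 CPM, above each 0 h library, and did not pass the test (0.26). The calls of Bmp1 and Fbln2, both under 2 CPM, were lost without single libraries, 4 and 5 of the 6 (adjusted p of at most 0.139 in edgeR). Sparc, Col4a1 and Col4a2 are also abundant in primitive endoderm, which can arise in stem cell cultures. The 6 markers of that list (Gata6, Gata4, Sox17, Sox7, Dab2, Lama1) summed to between 48.4 and 57.5 CPM at 0 h, 15.1 and 19.5 CPM at 5 h and 17.7 and 25.9 CPM at 48 h, mostly Lama1, with Gata6 at most 0.637 and Sox17 at most 0.258 CPM in any CGR8 library. The same list summed to between 141.8 and 157 CPM in NIH/3T3 at 0 h, so its sum is not particular to primitive endoderm. What part such cells have in the falls was not tested.

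**Figure D5:**
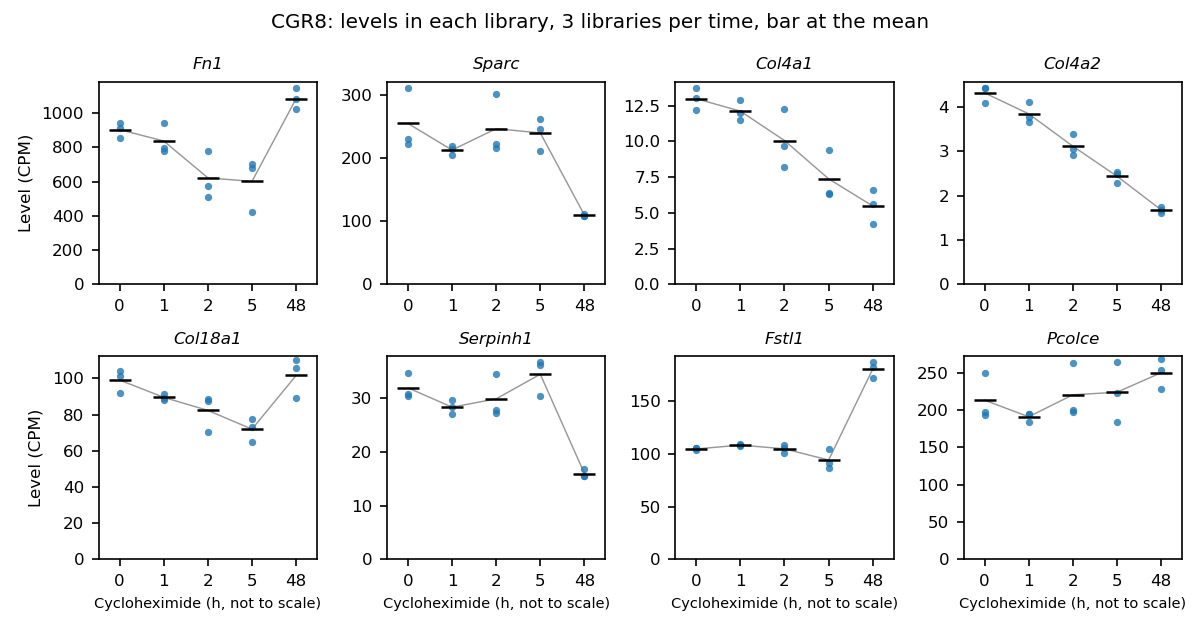
Levels (CPM, linear axes from 0) of 8 matrix genes in each CGR8 library by hours of cycloheximide; points are libraries and bars the mean of 3. Sparc, Col4a1, Col4a2 and Serpinh1 are lowest at 48 h, Fn1 and Col18a1 dip at 2 and 5 h, and Fstl1 is highest at 48 h.

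The 2 lines were compared by testing the difference itself, the change in CGR8 minus the change in NIH/3T3, in 1 fit of all 30 libraries. At 5 h 10 of 43 members differed, 5 in each direction, against 13.3% of all genes (8.18% higher and 5.09% lower in CGR8). The all-gene median of this difference was 0.13, so a value is read relative to it. Over all genes 1435 differed upward and 894 downward, and with library size alone 661 and 1439, with DESeq2 1168 and 1320. Timp3 (-1.59 ± 0.30) and Fn1 (-0.94 ± 0.25) had risen in NIH/3T3, and in CGR8 Fn1 had fallen and Timp3 (-0.67) was not called. Emilin1 (1.07 ± 0.24), P4ha2 (0.83 ± 0.18) and Serpinh1 (0.56 ± 0.13) had fallen in NIH/3T3 and changed by -0.47, 0.05 and 0.11 in CGR8. The call of Serpinh1 was lost without CGR8 5 h A or B, that of Tnc without CGR8 0 h A, and those of Pcolce and Thbs1 without several libraries each.

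At 48 h 18 differed, 16 of them lower in CGR8, against 12.1% lower and 9.78% higher of all genes (21.9% either way). Collagen IV and Sparc, level with 0 h in NIH/3T3 and lower in CGR8, differed by -1.26 ± 0.23 (Col4a1), -1.40 ± 0.19 (Col4a2) and -1.19 ± 0.17 (Sparc). Timp2, at 0.24 in NIH/3T3 (a call lost without any 1 library but 48 h C) and at -1.30 in CGR8, differed by -1.56 ± 0.20. It had at most 56 counts in any CGR8 library. P4ha2 (1.23 ± 0.18) and Fstl1 (0.72 ± 0.14) were the 2 that differed upward. The calls of Emilin1, Mfap5, Plod1 and Fbln2 were lost without single libraries, of which CGR8 48 h B is common to all 4. Without single libraries the counts were 7 to 10 at 5 h and 14 to 18 at 48 h. With the length and GC trends removed, 7 differed upward and 6 downward at 5 h, and 4 and 16 at 48 h.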

How the data were processed

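RNA was measured in 30 libraries, 15 per line. The values deposited by the authors are raw counts, 1 row per gene: whole numbers with totals of 18.2 to 30.5 M (mean 24.2, SD 2.95). The submitters' processing notes name STAR, DESeq2 and GRCm39, with no versions or roles; counter, use of strand and annotation release are not given in the sources used here. Libraries were grouped by line and time from their labels. Gene IDs without version were matched to symbols, 51880 of 57186 (90.7%), in GENCODE M21 on GRCm38, which also gave exon lengths, GC content, overlaps and untranslated regions; RefSeq on GRCm38.p6 gave microRNAs and promoters. Coordinates are those of these references, not of the build the files used.

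Counts were tested in R 4.3.3 with edgeR 4.0.16 (glmQLFit and glmQLFTest, TMM factors, filterByExpr at its settings of 10 counts per library and 15 in total, 1 coefficient per time, 1 fit per line; line differences in 1 fit of all 30 libraries), adjusted by Benjamini-Hochberg over all genes tested. CPM uses library totals times the TMM factor. Counting error limits low genes: a floor of 3 counts is 0.0986 to 0.163 CPM in NIH/3T3 and 0.0963 to 0.147 CPM in CGR8. Simulated counts with known changes gave back 94.5% of log2 changes of 1 for NIH/3T3 at 5 h over 13742 genes (false calls 6.28%) and 87.4% for CGR8 at 5 h over 15768 genes (5.58%). Only a small part of the genes, all with a mean of at least 1 CPM, was changed. The others were flat, and no trend on length or GC content was put in. These rates therefore do not carry over to lower genes or to libraries with such trends.

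The members and lists, and the tests, were chosen with earlier results of these data known. All members may be named; values per library are given for Col1a1, Col1a2, Fn1, Sparc, Lox, Serpinh1, the 4 largest called rises and falls at 5 and 48 h in NIH/3T3 and the 2 largest in CGR8, among those without overlap between libraries and with at least 10 CPM, and for further members chosen after their values were seen. From each further list the largest called rise and fall are named, except for 1 gene that is not reported here. Alternatives were RLE factors, library size alone, DESeq2 1.42.0, voom with sample weights in limma 3.58.1, no filter, a mean of at least 5 CPM, only the groups compared, a block for the replicate letter, and leaving out each library in turn; removal of length and GC trends and leaving out 1 h C and 2 h A of NIH/3T3 together were added after seeing the data.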

Additional observations from a re-analysis of the deposited data

Results flagged for a closer look

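Members are listed here where the change in CGR8 differed from the change in NIH/3T3 by an edgeR test of the difference itself (CGR8 minus NIH/3T3, log2), with the number of libraries as above and no explanation weighed. At 5 h the differences were Fn1 -0.94, Tnc -3.26, Thbs1 -1.66, Loxl2 -3.88 and Timp3 -1.59 downward, and Emilin1 1.07, Mfap5 1.52, Serpinh1 0.56, P4ha2 0.83 and Pcolce 0.525 upward. Tnc, Thbs1 and Timp3 had at most 5, 13 and 49 counts in any CGR8 library and Loxl2 at most 11 in NIH/3T3, so their fitted values are no bound on a fold.

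At 48 h the differences were Col5a1 -1.43, Col4a1 -1.26, Col4a2 -1.40, Sparc -1.19, Fbln2 -1.20, Emilin1 -0.63, Mfap5 -0.98, Serpinh1 -0.81, Plod1 -0.62, Loxl1 -1.42, Loxl3 -1.30, Bmp1 -1.53, Pcolce -0.97, Mmp14 -0.93 and Timp2 -1.56 downward and Fstl1 0.72 and P4ha2 1.23 upward. Eln, at -4.19, rests on at most 15 counts in NIH/3T3 and 11 in CGR8. The highest counts in any CGR8 library were also low for Loxl3 (17), Loxl1 (25), Bmp1 (34), Fbln2 (38), Mfap5 (48) and Timp2 (56). Their fitted values are likewise no bound on a fold. In Col4a1, Col4a2, Sparc and Fbln2 only CGR8 was called against its own 0 h; in Loxl1, Loxl3, Pcolce, Mmp14, Emilin1 and Mfap5 only NIH/3T3 was.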

How the results depend on the processing

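Of the members called in each comparison, the numbers called in the same direction under every alternative that tested them (a minimum of 5 CPM leaves low genes out) were 14 of 25 (NIH/3T3 2 h), 19 of 29 (5 h), 24 of 29 (48 h), 27 of 31 (48 h against 5 h), 0 of 4 (CGR8 2 h), 6 of 13 (5 h), 10 of 12 (48 h), 6 of 10 (line difference 5 h) and 14 of 18 (48 h). With length and GC trends removed, these log2 values changed sign among members called with or without the removal: CGR8 5 h Col18a1 0.35, Emilin1 0.23 and Timp1 -0.22; NIH/3T3 5 h Bmp1 0.0069, Col5a1 0.0461, Fbln2 0.45 and Loxl1 0.13; NIH/3T3 48 h against 5 h Fbln2 -0.30, Fn1 -0.55, P4ha1 0.18 and Plod1 -0.30. Eln at 2 h in NIH/3T3 was -1.61 with voom. The cause was not tested. Members called in CGR8 with a mean of at least 5 CPM required, so that fewer genes were tested, were 2 at 2 h (4 otherwise), 7 at 5 h (13) and 6 at 48 h (12); at 2 h 0 were called with only the groups compared and 0 with the trends removed. Members called at 1 h in NIH/3T3 (0) were 5 without 1 h C and 2 h A, 1 with DESeq2, 1 with no filter and 8 with voom, and in CGR8 (0) 3 with voom. All genes called at 1 h in NIH/3T3 (102) were 2100 without both libraries, 265 with DESeq2, 27 with only the groups compared, 178 with the trends removed, 272 with no filter and 2878 with voom; in CGR8 (43) they were 132 with DESeq2, 65 with only the groups compared, 90 with the trends removed, 202 with no filter and 1044 with voom. All genes called at 2 h in NIH/3T3 (4878) were 7719 without both libraries and 7827 with voom, and in CGR8 (3174) 965 with only the groups compared. With voom, all genes called were 7063 at 48 h in CGR8 (4429), 6373 for the line difference at 5 h (2329) and 7622 at 48 h (3849). Leaving out single libraries gave 52 to 475 calls over all genes at 1 h and 3050 to 5599 at 2 h in NIH/3T3, 15 to 26 and 1062 to 3924 in CGR8, 0 to 1 members at 1 h in NIH/3T3 and 0 to 5 at 2 h in CGR8. With the replicate block, members called were 0, 25, 29, 29 and 31 in NIH/3T3 (1, 2, 5, 48 h and 48 h against 5 h), 0, 3, 12 and 10 in CGR8 and 9 and 18 for the line differences. The letters were not used to pair libraries in the main fit. In no comparison did all 3 same-letter correlations of deviations exceed 0.1. For A, B and C they were 0.008, 0.048 and -0.066 at 5 h in NIH/3T3. In CGR8 they were -0.485, -0.578 and 0.273 at 2 h and -0.097, 0.419 and 0.421 at 5 h. Every library correlated best with its own letter in NIH/3T3 48 h against 5 h and CGR8 48 h. With 3 libraries per group these values cannot decide whether the letters pair the libraries. Depth limits Lum, Mfap2, Eln, Dcn and Loxl2 in NIH/3T3 and most fibrillar collagens in CGR8.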
